A study of Mus musculus with 3008 samples.

Results

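Klrg1-positive regulatory T cells (Tregs) were taken here as sorted Foxp3+ cells with at least 1 unique molecular identifier (UMI) of Klrg1 and at least 1000 UMIs in all. There were 978 of them among the 3008 cells of the series: 65 in the spleen library, 208 in the first colon library (colon 1) and 705 in the second (colon 2). They were set beside the 1989 cells of the same depth with 0 Klrg1 UMIs, of which 548 came from spleen, 402 from colon 1 and 1039 from colon 2. The question was which differences between colon and spleen remain, shrink or grow in the Klrg1-positive cells. All cells came from male B6 Foxp3-Ires-Gfp mice aged 7 months, were sorted as DAPI- TCRb+ CD4+ GFP+ and were read by inDrops, which barcodes single cells in droplets, on a NextSeq500. The reporter allele was thus shared by every group, and GFP marks cells by their Foxp3 transcription at the sort, not by KLRG1 protein. Spleens were dissociated by mechanical means and the colon lamina propria with collagenase and dispase, so the effects of tissue and of dissociation cannot be told apart. No label names an animal, and the second colon library is called rep2 in its titles and rep1b in its sample type, so each library counts as 1 sample. No test across animals was possible, and every interval below is a 95% interval that covers counting error only.

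KLRG1 is an inhibitory lectin-like receptor that binds classical cadherins, among them the E-cadherin of epithelia, and signals through an inhibitory motif in its tail. It appears on T cells and natural killer cells after strong or repeated stimulation. Among Tregs it marks a differentiated effector state with few cells in lymphoid organs and more in mucosa, where many of its cells carry the transcription factor GATA3 and the IL-33 receptor ST2, the product of Il1rl1.

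The members were selected on their measured Klrg1 UMIs, so the Klrg1 values are a description. The share of cells with a Klrg1 UMI was 10.6% (exact interval 8.28 to 13.3) in spleen, 34.1% (30.3 to 38.0) in colon 1 and 40.4% (38.1 to 42.8) in colon 2. With each cell thinned to 1000 UMIs the shares were 7.67%, 28.0% and 33.0%. Klrg1 (chromosome 6, 122270596 to 122282882, minus strand, mm10) gave 237, 860 and 3688 UMIs, or 1607, 1929 and 2260 UMIs per 1000000 (CPM) in the positive cells. Exactly 1 Klrg1 UMI was found in 19, 57 and 145 cells, and 4 or more in 26, 85 and 394. At the depth limit, the shallowest positive cells held 1105, 1024 and 1000 UMIs, and the deepest cells left out held 992, 986 and 996. Of the 4, 9 and 28 cells left out for depth, 0, 0 and 4 had a Klrg1 UMI. A cell with 0 Klrg1 UMIs may still have carried the transcript at this depth, and the sort holds no cell type known to lack Klrg1 from which a background share could be read.

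**Figure D1:**
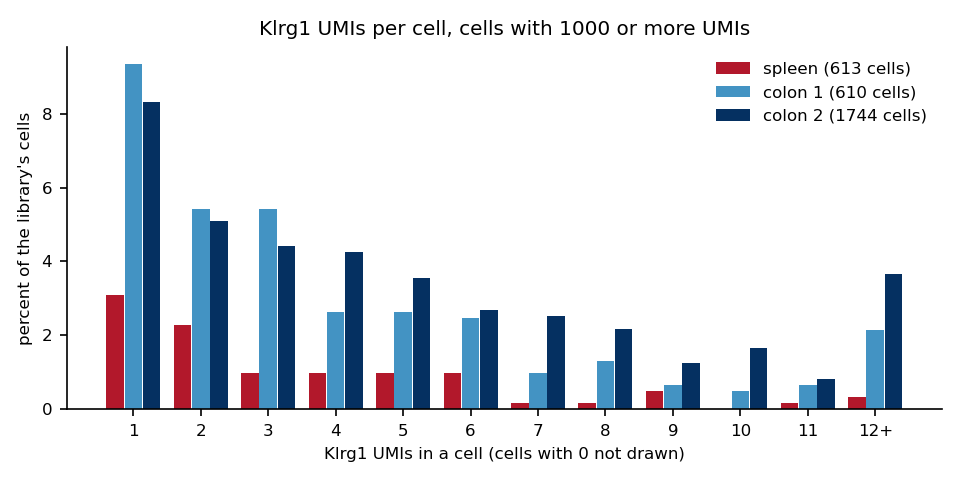
Number of Klrg1 UMIs in a cell (x axis) against the percent of the library's cells (y axis) in spleen (red), colon 1 (light blue) and colon 2 (dark blue), cells with 0 not drawn. Both colon libraries hold a larger share of cells at each low count, and 26 of 65, 85 of 208 and 394 of 705 positive cells in spleen, colon 1 and colon 2 had 4 or more Klrg1 UMIs.

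The positive cells carried the transcripts of CD4+ Tregs in all 3 libraries. Foxp3, the lineage factor, stood at 380 CPM in positive spleen cells, 538.5 in colon 1 and 314 in colon 2, beside 269.8, 409 and 299 in negative cells. Ikzf2, which encodes Helios, was at 1424, 740.4 and 798 CPM, and Cd4 at 339, 538.5 and 793 CPM. Il2ra, a further Treg marker, was lower in positive than in negative spleen cells (169.5 against 363 CPM). In colon it was higher in positive cells, at 671 against 572 CPM in colon 1 and 1074 against 680 in colon 2. The sums compared below held 147450, 445713 and 1631715 UMIs of positive cells, with a median of 2095, 1846 and 2145 UMIs per cell. The median was 1828.5, 1718.5 and 1984 in negative cells. Ribosomal protein genes took 21.3%, 16.7% and 15.9% of the UMIs of positive cells and 28.6%, 17.5% and 16.1% of those of negative cells, so their share in spleen moved with Klrg1. Libraries shared 5 (spleen and colon 1), 11 (spleen and colon 2) and 9 (both colons) cell barcodes. At least 1 UMI of a cell division gene was seen in 10.8%, 6.73% and 5.96% of positive cells, with intervals that overlap.

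A gene entered the counts below when it held at least 200 CPM in positive spleen cells, which is about 30 UMIs, or in positive cells of both colon libraries. These were 936 genes. A difference was called when the colon sum was at least 2-fold above or below the spleen sum in both colon libraries, and both ratios use the same spleen library. In positive cells 121 genes (12.9%) were higher in colon and 64 (6.84%) lower. In negative cells 149 of the same genes (15.9%) were higher and 27 (2.88%) lower. The genes higher in colon were largely shared, with 103 called in both kinds of cell, 46 in negative cells alone and 18 in positive cells alone. Among the lower genes 19 were called in both. The 64 lower genes need a second look, because 56 of them were eligible only through the small spleen sum of positive cells. With genes chosen at 200 CPM over positive and negative cells together, an alternative added after seeing the data, 121 were higher and 26 lower in positive cells, and 152 and 28 in negative cells. The split also moved with scaling. It was 65.4% higher by CPM, 86.6% (175 to 27) by TMM factors, 83.2% (168 to 34) by median-of-ratios factors and 55.6% (140 to 112) with ribosomal protein genes left out of the totals. In negative cells it was 84.7% by CPM and 65.8% (150 to 78) without ribosomal protein genes.

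A difference was said to have shrunk where the log2 ratio of colon to spleen in positive cells was nearer to 0 by at least 1, in both colon libraries, than in negative cells, and to have grown where it was farther by at least 1. Of 936 genes 32 (3.42%) shrank, 27 (2.88%) grew and 0 reversed. Among the 32, 31 were genes higher in the colon and 1, Klf2, was lower there. The 31 had median log2 ratios of 1.60 and 1.85 in positive cells, for colon 1 and colon 2, beside 3.21 and 3.25 in negative cells, and 18 of them were still at least 2-fold higher in both colons. Over all eligible genes the medians were -0.07 and -0.12 in positive and 0.18 and 0.14 in negative cells. The difference between positive and negative cells lay in the spleen: 29 of these 31 genes were at least 2-fold above in positive spleen cells, and 0 were 2-fold above or below in positive cells of either colon. Their median log2 ratio of positive to negative cells was 1.64 in spleen, 0.07 in colon 1 and 0.12 in colon 2, beside 0.20, 0.00 and -0.02 over all eligible genes. For these 31 genes the rule itself sets the spleen ratio above each colon ratio by at least 1. It does not fix whether spleen is raised or colon lowered, and the values show only where the gap lay. Because the cells were also split on Klrg1, these ratios within a library are a description. With eligibility over all cells, which changes the genes counted and no ratio, 34 genes shrank, among them 31 of the same 32. With totals that leave out ribosomal protein genes 32 shrank, 27 of them the same. With TMM factors, which moved the median log2 ratio of all genes in positive cells by 0.24 and 0.31, 23 shrank and 21 of them were the same.

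**Figure D2:**
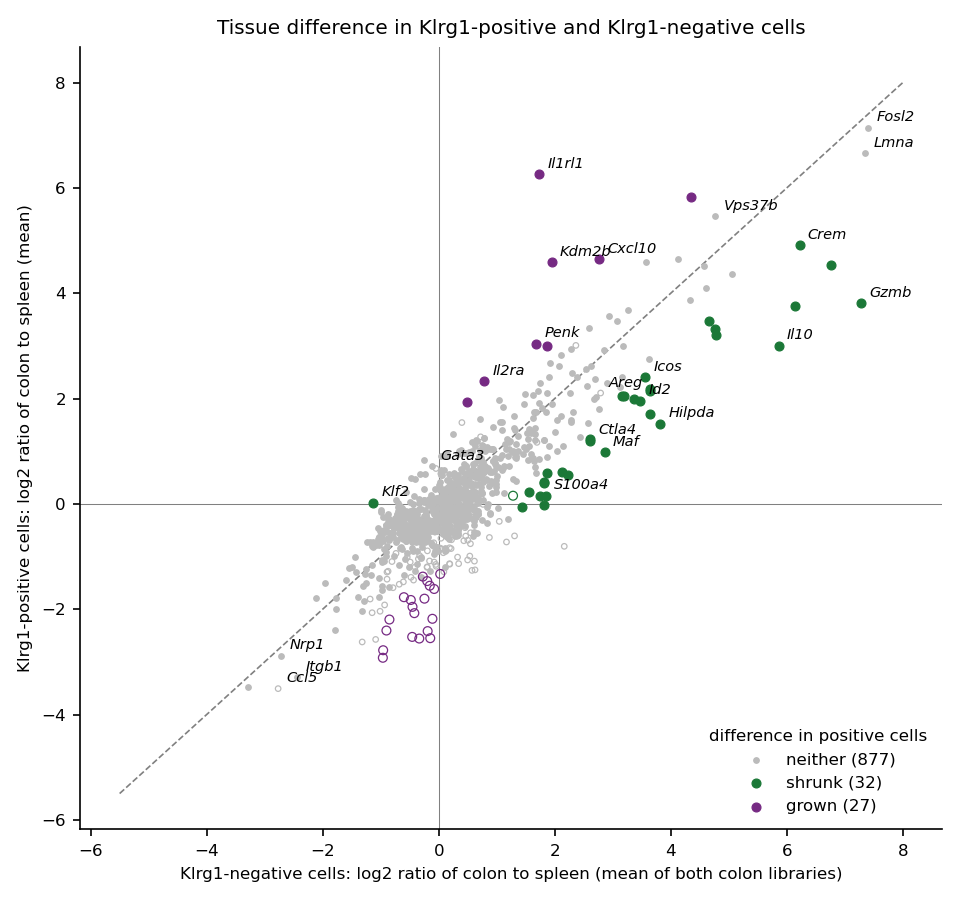
Each point is 1 of 936 genes, with its log2 ratio of colon to spleen (mean of both colon libraries) in Klrg1-negative cells on the x axis and in Klrg1-positive cells on the y axis; green points shrank (32), purple points grew (27), and open points were eligible only through sums of positive cells. Gzmb and Il10 lie well below the dashed line of equal ratios, Fosl2, Lmna and Nrp1 lie near it, and Il1rl1 lies above it.

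Gzmb, Il10 and Fgl2, effector molecules of suppression, were among the genes that shrank. Gzmb, the protease granzyme B, was at 251 CPM in positive spleen cells and 13.6 in negative ones, at 3457 and 2216 in colon 1, and at 3591 and 2009 in colon 2. Its value in positive spleen cells rests on 37 UMIs in 8 of 65 cells, at most 9 in 1 cell, and that in negative ones on 5 of 548 cells. All 4 colon sums stood above both spleen sums, and the spleen sums differed from each other far more than the colon sums did. In positive cells the log2 ratio of colon to spleen was 3.78 (3.31 to 4.30) and 3.84 (3.37 to 4.35), against 7.35 and 7.21 in negative cells. The change was -3.57 (-4.53 to -2.68) and -3.37 (-4.33 to -2.49). A 13.8-fold and 14.3-fold difference thus remained in the positive cells. After thinning, Gzmb was found in 9.23% of positive spleen cells, 60.1% in colon 1 and 55.9% in colon 2, and in 0.730%, 42.3% and 43.2% of negative cells.

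Il10, the anti-inflammatory cytokine, shrank by a similar amount on fewer UMIs. It was at 189.9 CPM in positive and 23.5 in negative spleen cells, 1404 and 1346 in colon 1, and 1654 and 1390.0 in colon 2. The log2 ratio of colon to spleen was 2.89 and 3.12 in positive cells and 5.84 and 5.88 in negative cells, a change of -2.95 (-3.78 to -2.13) and -2.76 (-3.58 to -1.95). The value in positive spleen cells rests on 28 UMIs in 6 cells, 18 of them in 1 cell, and that in negative ones on 9 of 548 cells. Without the cell that holds most UMIs of the gene in each sum, the change was -1.98 and -1.73, so Il10 still shrank. Gzmb and Il10 were found together, after thinning, in 60 of 208 (28.8%) positive cells of colon 1 and in 228 of 705 (32.3%) of colon 2. In spleen 6 and 3 of 65 positive cells had each gene and 0 had both, too few to read co-detection. Fgl2, a secreted suppressive mediator, had log2 ratios of 1.55 and 1.85 in positive and 3.41 and 3.88 in negative cells. Of the 15 genes listed as suppressive or repair effectors 6 were eligible. In positive cells 5 of them were higher in colon, 3 had shrunk (Gzmb, Il10, Fgl2) and 1 had grown (Penk). Areg, at -0.74 and -0.63, did neither. Over all 936 genes 12.9% were higher in colon in positive cells, 3.42% shrank and 2.88% grew. The counts of this list and of those below are read beside these shares.

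The differences in 3 S100 genes shrank to near 0. S100a4, a calcium-binding protein of motile and memory T cells, was at 1750.0 CPM in positive and 585 in negative spleen cells, 2064 and 2134 in colon 1, and 1839 and 2082 in colon 2. Only the negative spleen cells stood apart. Ratios of colon to spleen were, on the log2 scale, 0.24 (0.04 to 0.44) and 0.07 (-0.11 to 0.26) in positive cells and 1.87 and 1.83 in negative cells. S100a6 had ratios of 0.36 and -0.08 against 1.98 and 1.497, and S100a11 of -0.08 and 0.03 against 1.92 and 1.72. After thinning, 56.9% of positive spleen cells had S100a4, near the 63.5% and 66.5% of positive colon cells, while 16.8% of negative spleen cells had it. Of 20 genes listed for circulating effector cells, 15 were eligible: 7 were higher in colon in negative cells, 2 in positive cells, and 4 had shrunk, the S100 genes named here and Ccr2. The 2 of 15 in positive cells lie near the 12.9% of all eligible genes. Ccr2, a chemokine receptor, kept log2 ratios of 2.23 and 2.08 in positive cells, from 3.72 and 3.56 in negative cells.

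Several regulators and receptors of effector Tregs shrank to a smaller but still positive difference. Maf, a transcription factor of IL-10-producing T cells, was at 475 CPM in positive and 150.3 in negative spleen cells, 857 and 1006 in colon 1, and 1025 and 1185 in colon 2. It was under 2-fold in colon 1, with log2 ratios of 0.85 (0.48 to 1.24) and 1.11 (0.76 to 1.48) in positive cells against 2.74 and 2.98 in negative cells. Id2, a regulator of effector differentiation, was at 346 and 82.4 CPM in spleen, 1351 and 964.5 in colon 1, and 1345 and 865 in colon 2. It kept log2 ratios of 1.97 and 1.96, against 3.55 and 3.39. Ctla4, the inhibitory receptor that removes CD80 and CD86 from antigen-presenting cells, was at 1004 and 411 CPM in spleen, 2533 and 2703 in colon 1, and 2103 and 2348 in colon 2. Its log2 ratios were 1.33 and 1.07 in positive cells, against 2.72 and 2.51. Icos, a costimulatory receptor, had 2.12 and 2.68 against 3.23 and 3.87. Of 19 genes listed as effector Treg regulators and receptors, 7 were eligible, 6 were higher in colon in negative cells, 4 in positive cells, and 4 had shrunk: Icos, Id2, Maf and Tnfrsf1b.

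Batf, a factor needed for tissue Treg differentiation, ended on the other side of 0. It was at 305 CPM in positive and 84.2 in negative spleen cells, 184 and 220.2 in colon 1, and 186 and 162.5 in colon 2. The log2 ratio of colon to spleen was -0.73 and -0.72 in positive cells and 1.39 and 0.95 in negative cells. Neither side reached 2-fold in both colon libraries, so Batf was called in neither. It passed the 200 CPM limit only through positive spleen cells, where it was highest, which favours a ratio toward spleen. Differences in 3 further named genes shrank. Odc1, the first enzyme of polyamine synthesis, had log2 ratios of 3.17 and 3.25 against 4.68 and 4.89. Hilpda, a lipid droplet protein, had 1.60 and 1.45 against 3.86 and 3.78. Glrx, glutaredoxin, had 0.65 and 0.43 against 2.19 and 2.26. Klf2, which drives the recirculation receptors, was at 359 CPM in positive and 630.1 in negative spleen cells, 361 and 289 in colon 1, and 371 and 286 in colon 2. Its lower level in colon, with log2 ratios of -1.12 and -1.14 in negative cells, was 0.01 and 0.04 in positive cells.

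**Figure D3:**
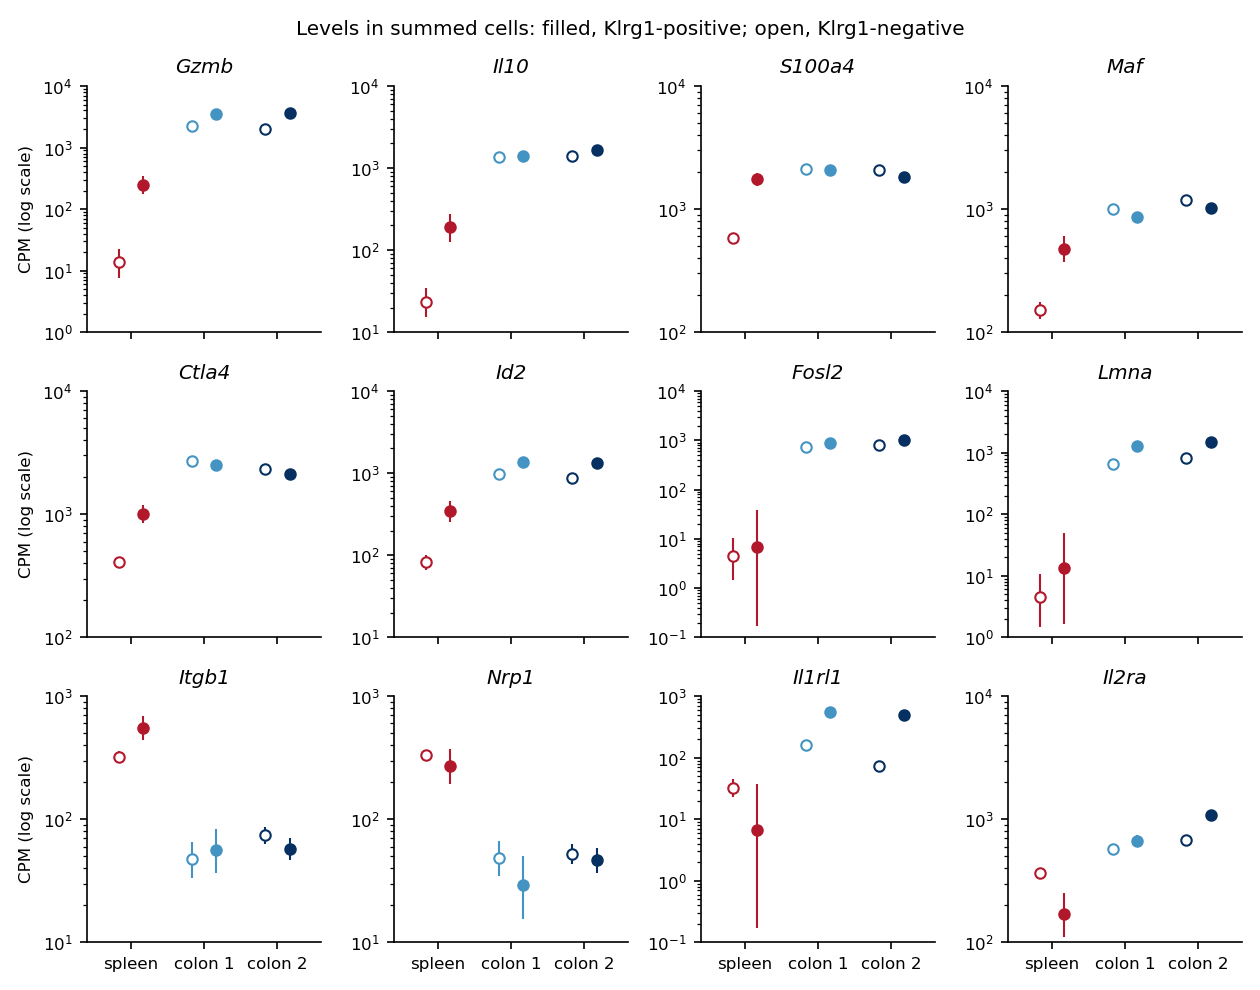
Level of 12 genes in CPM (log axis) in the summed cells of spleen (red), colon 1 (light blue) and colon 2 (dark blue), filled for Klrg1-positive and open for Klrg1-negative cells, with 95% counting intervals. For Gzmb, Il10, S100a4, Maf, Ctla4 and Id2 the filled spleen point stands well above the open one, while the filled and open points of a colon library lie close together.

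Of the 149 genes higher in colon in negative cells 103 were also called in positive cells, and 79 of these neither shrank nor grew. The same holds for all 19 genes lower in both. The largest of these differences concerned Fosl2, an AP-1 factor, and Lmna, the nuclear lamin A/C. Fosl2 was at 6.78 CPM in positive spleen cells, a single UMI, and 4.53 in negative ones, at 897 and 719 in colon 1, and at 1023 and 811 in colon 2. Its log2 ratio was 7.05 (4.56 to 12.4) and 7.24 in positive cells and 7.31 and 7.49 in negative cells. Lmna was at 13.6 CPM (2 UMIs) and 4.53 in spleen, 1277 and 662 in colon 1, and 1484 and 817 in colon 2, with log2 ratios of 6.56 (4.70 to 9.61) and 6.77 (4.92 to 9.82) in positive cells. After thinning, 0 of 65 positive spleen cells had either gene. This allows up to 5.52% of cells with a UMI at this depth, and unthinned 1 cell had Fosl2 and 2 had Lmna. In colon 42.3% and 46.7% of positive colon cells had Fosl2 and 49.0% and 51.1% had Lmna. Both spleen sums were near 0 for these genes and all 4 colon sums were high.

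Vps37b, a part of the ESCRT-I sorting complex, was at 27.1 CPM (4 UMIs) in positive spleen cells and at 1061 and 1356 in positive colon cells. Its log2 ratios of 5.29 and 5.64 stood beside 4.59 and 4.94 in negative cells. Fosb and Hspa1b, an AP-1 factor and an inducible heat-shock protein, had 0 UMIs in positive spleen cells. With that sum set to 3 counts, Fosb was higher by a log2 ratio of 4.52 and 4.76, and Hspa1b by 4.25 and 4.49. Both belong to a list of 22 genes known to respond to dissociation and heat shock, 13 of them eligible, of which 4 were higher and 1 lower in colon in positive cells, 4 and 1 in negative cells, with 0 shrunk and 0 grown. The median level of this list was 6.37 UMIs per 1000 in positive spleen cells and 9.60 and 11.2 in positive colon cells, beside 5.32, 8.53 and 9.04 in negative cells. Its part in the tissue differences was not tested. Hopx, a homeodomain cofactor of effector T cells, kept its difference although its level moved in every library. It was at 359 CPM in positive and 178 in negative spleen cells, 1968 and 989.6 in colon 1, and 1849 and 878 in colon 2, with log2 ratios of 2.45 and 2.36 against 2.47 and 2.30. Tnfrsf9 and Tnfrsf4, costimulatory receptors of the TNF receptor family, neither shrank nor grew: Tnfrsf9 had 2.09 and 2.38 against 2.49 and 2.64, and Tnfrsf4 had 1.55 and 1.64 against 2.06 and 2.03. Tnfrsf1b of the same family did shrink, with 0.95 and 1.53 against 2.46 and 2.74.

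The genes that remained lower in colon included receptors of adhesion and recirculation. Itgb1, an integrin chain, was at 556 and 322 CPM in spleen and at 56.1 and 57.6 in positive colon cells, with log2 ratios of -3.31 and -3.27 against -2.76 and -2.12. Nrp1, neuropilin-1, common on Tregs of thymic origin, had -3.22 and -2.54 against -2.77 and -2.67. S1pr1, the receptor for exit from tissue into lymph and blood, had -3.14 and -1.64 against -1.89 and -1.69. All 3 were lower in colon in both kinds of cell. Ccl5, a chemokine of effector T cells, was at 407 CPM in positive and 72.4 in negative spleen cells, 42.6 and 15.0 in colon 1, and 30.0 and 7.53 in colon 2, with log2 ratios of -3.25 and -3.76 against -2.27 and -3.27. The spleen value rests on 60 UMIs in 12 cells. Ccl5, like Itgb1, Nrp1 and S1pr1, passed the 200 CPM limit only through positive spleen cells. Over all cells Ccl5 was not eligible. Of 24 genes listed for resting T cells of lymphoid organs 4 were eligible: 2 were lower and 1 higher in colon in positive cells, 3 were lower in negative cells, and 1, Klf2, shrank.

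Counted per cell, the lists differed in how many positive spleen cells reached the medians of positive colon cells. For circulating effector genes the median was 13.03 UMIs per 1000 in positive spleen cells, 18.5 in colon 1 and 17.1 in colon 2, and 24 and 26 of 65 spleen cells reached the medians of colon 1 and colon 2. For GATA3-ST2 Treg genes the medians were 2.46, 2.855 and 2.755, and 27 and 29 of 65 spleen cells reached them, against 0.952, 1.03 and 0.966 in negative cells. Single genes of this list still differed between the tissues in positive cells: Il1rl1, Areg and Penk were higher in colon and Nrp1 lower. For tissue residency genes the medians were 1.58, 9.09 and 9.21, and 0 of 65 spleen cells reached either colon median. The highest spleen cell held 7.38, above the lower quartiles of 6.50 and 6.47 in colon. The residency list holds Fosl2, Lmna and Vps37b, described above as much higher in colon. It was chosen with earlier results of these data known, so its gap is a description. Between these lists stood Treg identity genes, with 12 and 10 of 65 spleen cells at the medians of colon 1 and colon 2, the dissociation list with 11 and 5, and TNF receptor and NF-kB genes with 6 and 4. For effector Treg regulators they were 2.65, 8.21 and 9.81, and for suppressive effectors 0.751, 7.36 and 7.19, with 1 of 65 spleen cells at each colon median in both lists. Resting genes had 1.48, 0.8355 and 0.943 in positive cells, and 3.65, 0.861 and 0.922 in negative cells, and were highest in spleen cells with 0 Klrg1 UMIs. These cells share libraries and are not replicates.

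**Figure D4:**
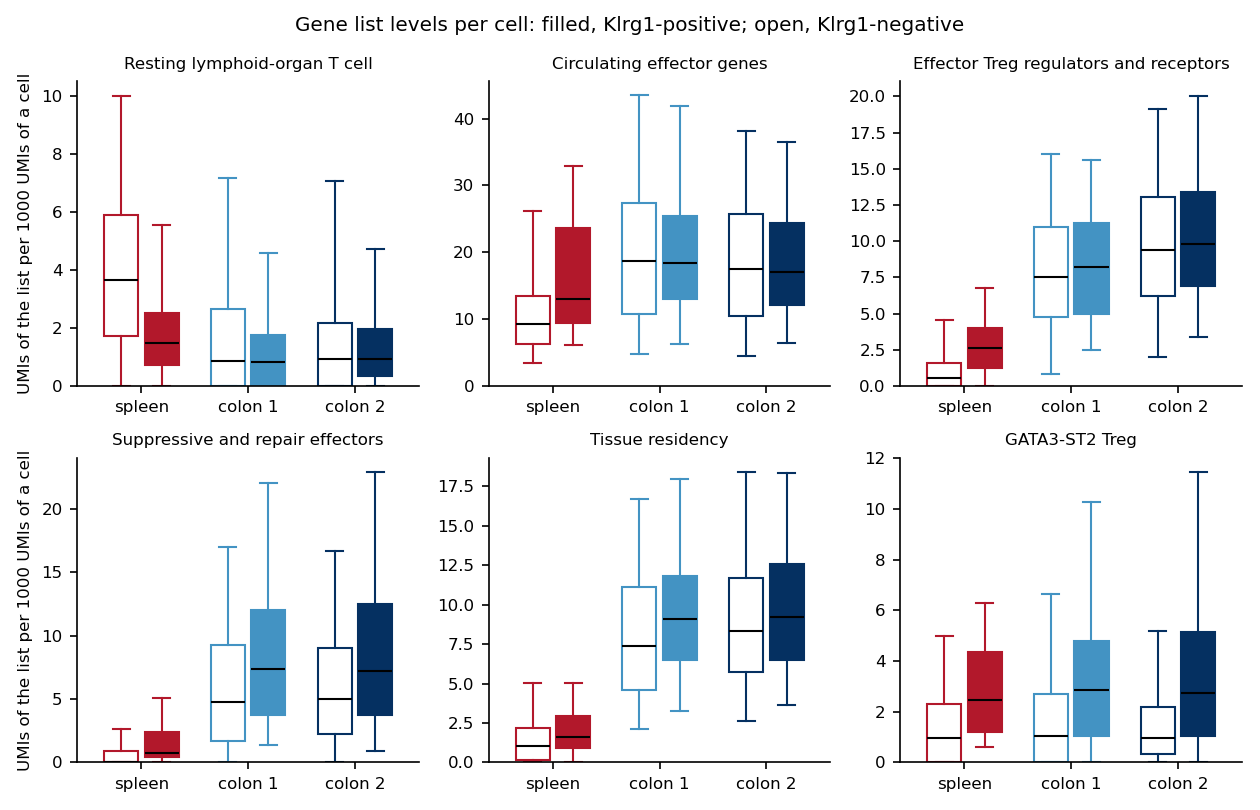
UMIs of a gene list per 1000 UMIs of a cell (y axis) in spleen (red), colon 1 (light blue) and colon 2 (dark blue), filled boxes for Klrg1-positive and open for Klrg1-negative cells; boxes span the quartiles with the median as a line, and whiskers the 5th to 95th percentile. The medians of positive spleen and colon cells lie near each other for GATA3-ST2 genes (2.46 against 2.855 and 2.755) and far apart for tissue residency genes (1.58 against 9.09 and 9.21). Near medians of the GATA3-ST2 list do not mean near levels of each gene: Il1rl1, Areg and Penk were higher in colon and Nrp1 lower. The lists were chosen with earlier results of these data known.

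Among positive cells the spleen levels moved with the number of Klrg1 UMIs in some lists. Effector Treg genes had medians of 1.66, 1.74 and 3.165 UMIs per 1000 in spleen cells with 1, 2 to 3 and 4 or more Klrg1 UMIs, and 0.531 in cells with 0. Residency genes had 1.715, 1.54 and 1.57, with no such order. Gzmb had 0, 19 and 18 UMIs in these 3 groups of spleen cells and Il10 had 2, 5 and 21. In colon 2 Gzmb was at 2499 CPM in cells with 1 Klrg1 UMI, 3818 with 2 to 3 and 3859 with 4 or more, and Gata3 at 597, 739 and 1047. In colon 1 Gzmb was at 2559, 4340.0 and 3472 CPM, highest with 2 to 3 Klrg1 UMIs, and Gata3 at 753, 804 and 991. The spleen groups hold 19, 20 and 26 cells, so these values carry wide counting error.

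Of the 27 differences that grew, 8 were higher and 19 lower in colon. The 19 lower ones all had under 300 CPM in positive spleen cells, and 0 of them were eligible over all cells, so their number follows the eligibility rule. Ptpn6, the phosphatase SHP-1, was 1 of these, at 210.2 CPM (31 UMIs) in positive spleen cells, 15.7 in colon 1 and 49.0 in colon 2. The 8 higher ones were all eligible over all cells too, a setting that leaves their ratios as they were. They were Il1rl1, Kdm2b, Cxcl10, Il2ra, Penk, Kctd12, and, named after their values were seen, Socs2 and Srsf2. In 7 of the 8 the positive spleen cells were below the negative ones, and in 7 the positive cells of both colons were above. Their spleen sums are small, from 0 UMIs for Cxcl10 to 25 for Il2ra.

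Il1rl1, which encodes the IL-33 receptor ST2, grew most. It was at 6.78 CPM (1 UMI in 65 cells) in positive and 32.6 in negative spleen cells (36 UMIs), 552 and 160.1 in colon 1, and 488 and 73.1 in colon 2. Within spleen the ratio of positive to negative cells could not be told from 1 (log2 -2.27, -7.61 to 0.31), while within colon it was 3.45-fold and 6.69-fold. The log2 ratio of colon to spleen was 6.35 (3.85 to 11.7) and 6.17 (3.69 to 11.5) in positive cells and 2.30 and 1.16 in negative cells, a change of 4.05 (1.49 to 9.39) and 5.01 (2.46 to 10.3). Gata3, the transcription factor of the same program, was called in neither kind of cell. It was at 536 CPM in positive and 262.5 in negative spleen cells, 877 and 291.5 in colon 1, and 892 and 204 in colon 2, so it was higher in positive cells of all 3 libraries. Its log2 ratio of colon to spleen was 0.71 (0.36 to 1.08) and 0.73 (0.41 to 1.08) in positive cells, below the 2-fold limit, and 0.15 and -0.37 in negative cells. After thinning, 33.85% of positive spleen cells and 39.4% and 41.3% of positive colon cells had Gata3. Gata3 and Il1rl1 were found together in 33 of 208 (15.9%) positive cells of colon 1 and 107 of 705 (15.2%) of colon 2. In spleen 0 of 65 positive cells had Il1rl1 after thinning, so no cell could hold both. Of 12 GATA3-ST2 Treg genes 7 were eligible, 3 were higher and 1 lower in colon in both kinds of cell, 0 had shrunk and 2 had grown (Il1rl1 and Penk). Over all eligible genes 12.9% were higher and 6.84% lower in positive cells, 15.9% and 2.88% in negative cells, and 2.88% grew.

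Il2ra, the high-affinity chain of the IL-2 receptor, was at 169.5 CPM in positive and 363 in negative spleen cells, 671 and 572 in colon 1, and 1074 and 680.0 in colon 2. Positive spleen cells were lowest and positive colon 2 cells highest. The log2 ratio of colon to spleen was 1.98 (1.39 to 2.63) and 2.66 (2.10 to 3.30) in positive cells against 0.66 and 0.91, a change of 1.33 and 1.76. Cxcl10, an interferon-induced chemokine, had 0 UMIs in positive spleen cells and 41 in negative ones, and stood at 556 and 268 CPM in colon 1 and 469 and 239 in colon 2. With the positive spleen sum set to 3 counts, its log2 ratio was 4.77 and 4.53 in positive cells against 2.85 and 2.69. Kdm2b, a histone demethylase, was at 13.6 CPM (2 UMIs) and 41.6 in spleen and at 305 and 353 in positive colon cells, with log2 ratios of 4.49 (2.61 to 7.55) and 4.70 (2.84 to 7.75) against 1.90 and 1.999. Penk, which encodes proenkephalin, was at 102 CPM (15 UMIs in 3 cells) and 52.5 in spleen, 835 and 178 in colon 1, and 843 and 159 in colon 2. Its change was 1.28 and 1.45, but the mean change was -0.17 when Klrg1 was read after thinning to 1000 UMIs. The interval for Kctd12 (1 UMI in positive spleen cells) included 0, and its mean change was -0.57 with 2 or more Klrg1 UMIs, -0.55 with Klrg1 read after thinning and -0.62 without its top cells.

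Within a library, the contrast of positive with negative cells is the one the rule used and is given for orientation. At least 2-fold in all 3 libraries, 5 genes (0.534%) were higher and 0 (0.0%) lower: Areg, Gata3, Ccl5, Kdm6b and Nfkbiz. Eligibility asks for a level in positive cells, which favours higher genes. Over all cells 3 were higher and 2 lower, and Areg and Ccl5 were then not eligible. Areg, the growth factor amphiregulin, was higher by log2 ratios of 2.14, 1.40 and 1.51 in spleen, colon 1 and colon 2, on 10 UMIs in 7 positive spleen cells. Gata3 was higher by 1.03, 1.59 and 2.13, and Ccl5 by 2.49, 1.51 and 1.996. Nfkbiz, an atypical inhibitor of NF-kB, was higher by 1.91, 1.68 and 1.68, but 17 of its 32 UMIs in positive spleen cells came from 1 cell, without which the spleen value was 0.93. Kdm6b, a histone demethylase, was higher by 1.19, 1.08 and 1.17, and by 0.58 in spleen without its top cell. Ccr7 and Tcf7, a homing receptor and a factor of resting T cells, were too low in positive cells to be eligible, with log2 ratios of -1.64, -2.52 and -2.22 for Ccr7. The spleen differed most in this contrast: 104 genes were 2-fold higher and 7 lower in positive spleen cells, against 10 and 11 in colon 1 and 10 and 1 in colon 2. With eligibility over all cells these counts were 64 and 13 in spleen, 8 and 11 in colon 1, and 9 and 5 in colon 2. The spleen sum is also the smallest.

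**Figure D5:**
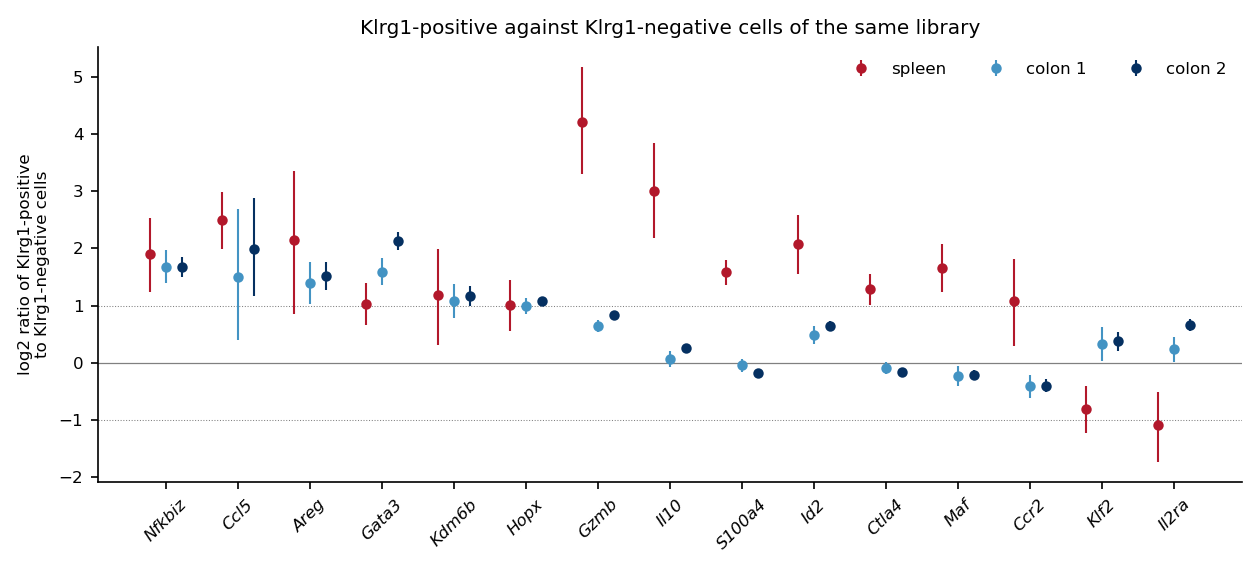
Log2 ratio of Klrg1-positive to Klrg1-negative cells of the same library (y axis) for 15 genes in spleen (red), colon 1 (light blue) and colon 2 (dark blue), with 95% counting intervals; dotted lines mark 2-fold. Nfkbiz, Ccl5, Areg, Gata3 and Kdm6b are above 2-fold in all 3 libraries, Gzmb, Il10, S100a4, Id2, Ctla4, Maf and Ccr2 chiefly in spleen, and Maf, Ccr2, Klf2 and Il2ra have opposite signs in spleen and colon.

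The remaining lists are given by their counts. Over all 936 genes 12.9% were higher in colon in positive and 15.9% in negative cells, and 6.84% and 2.88% were lower. Of the same genes 3.42% shrank and 2.88% grew, and a list's count, here or above, is read beside these shares. Of 16 Treg identity genes 11 were eligible, 4 were higher and 2 lower in colon in positive cells and 4 and 2 in negative cells, with Il2ra called in positive cells alone, and 2 had shrunk (Ctla4 and Capg) and 1 grown (Il2ra). Of 18 residency genes 12 were eligible, with 8 higher in positive and 9 in negative cells and 3 shrunk (Crem, Cdkn1a and Ramp3). Cdkn1a rests on 2 UMIs in positive spleen cells, and its mean change was 0.64 when the negative sums were thinned to the totals of the positive ones. Of 28 trafficking receptors 11 were eligible, with 3 higher and 3 lower in positive cells, 2 and 3 in negative cells and 1 shrunk. Of 15 genes of TNF receptors and NF-kB 9 were eligible, 6 were higher in positive cells, 6 in negative cells, and 1 shrank. Of 12 early genes of T cell receptor signalling 4 were eligible, with 3 higher in positive and 1 in negative cells. The largest of these shifts was in Nr4a1, an immediate target of receptor signalling, with log2 ratios of 1.36 and 1.85 against 0.56 and 0.85. Of 15 interferon genes 4 were eligible, with 1 lower in positive and 1 higher in negative cells. Of 17 cell cycle genes 3 were eligible and 1, Pcna, was higher in both kinds. Of 12 RORgt-MAF Treg genes 2 were eligible, with 1 higher in positive and 2 in negative cells and 1 shrunk (Maf). Of 8 genes of the T cell receptor complex 7 were eligible, with 0 called in positive cells and 1 higher in negative cells. Of 14 genes of KLRG1 signalling and related receptors 3 were eligible, with Cd69 higher and Ptpn6 lower in positive cells. Among 5 genes of cadherin ligands and CD103, Itgb7 was the eligible one and was not called.

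Markers of other cell types were low in the positive cells, and their part in the results was not tested. Of 12 genes listed for CD8 or natural killer cells 9 had 0 UMIs in positive spleen cells, Cd8a and Klrd1 among them, and Cd8a had 0 UMIs in positive cells of all 3 libraries. That list summed to 502 CPM in positive spleen cells, 177 in colon 1 and 157.5 in colon 2, and 407 of the 502 CPM were Ccl5. In negative cells it summed to 157.5, 155 and 111 CPM. Cd8b1 had 10, 31 and 71 UMIs. Group 2 innate lymphoid genes summed to 27.1, 47.1 and 53.9 CPM with 7 of 10 at 0 in positive spleen cells, and helper T cell genes to 27.1, 31.4 and 46.0 with 5 of 8 at 0. B or plasma cell genes summed to 115, 85.3 and 116 CPM with 9 of 12 at 0, and macrophage, dendritic cell or granulocyte genes to 136, 219.9 and 232 with 16 of 17 at 0. In negative cells the innate lymphoid list summed to 14.5, 11.3 and 16.8 CPM, the helper list to 34.4, 42.5 and 29.7, the B or plasma cell list to 60.65, 80.1 and 108.5, and the myeloid list to 102, 255 and 250.6. Epithelial, stromal and endothelial genes summed to 217, 130.1 and 139 CPM with 12 of 15 at 0, and to 152, 71.3 and 103 in negative cells. In spleen every list but the helper one summed higher in positive than in negative cells. The CD8 or natural killer, innate lymphoid, B or plasma cell and epithelial, stromal and endothelial lists did so in both colon libraries too. Most genes of each list were at 0 in positive spleen cells, so a sum can rest on 1 gene, as with Ccl5. Epcam, an epithelial marker, had 22, 24 and 153 UMIs in positive cells and 31, 14 and 68 in the larger negative sums. Without the cells that held 2 or more UMIs of these markers (7, 14 and 63 positive cells), 35 genes shrank, 27 of them the same, and 36 grew.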

How the data were processed

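Per the labels' protocols, single Tregs were barcoded in droplets, reverse transcribed from oligo-dT and amplified by in vitro transcription. TopHat2, SAMtools and genome build mm10 are listed, with no versions, per the submitters' processing notes. The annotation, UMI collapsing and cell calling were not given in the sources used here. In the table deposited by the authors, values are whole-number UMI counts of 23725 genes per cell, and 0 columns were left out. Positions come from GENCODE vM21 on the same build.

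Counts were summed over Klrg1-positive and Klrg1-negative cells of each library and scaled to CPM. Ratios carry exact conditional binomial intervals, their differences intervals combined by variance estimates recovery, and shares Clopper-Pearson intervals, all at 95%. A sum of 0 was set to 3 counts in ratios. Analyses used Python 3.11.15, numpy 2.4.6, scipy 1.17.1 and pandas 2.3.3. edgeR 4.0.16 in R 4.3.3 gave TMM factors only. The procedure was tested on simulated sums with independent counts, which do not mimic UMIs concentrated in single cells. No doublets were called.

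The members and gene lists were chosen with earlier results of these data known. Genes named are those with the 12 highest and 12 lowest tissue differences in positive cells, the 10 largest shrunk and 10 largest grown differences whose intervals leave out 0, the 12 highest and 8 lowest within libraries, up to 4 members of each list and a fixed set. T cell receptor, immunoglobulin, mitochondrial, ribosomal and unnamed genes were left out. Epcam, Socs2 and Srsf2 were added after their values were seen. Alternatives changed the Klrg1 limit, depth limit, scaling, eligibility, fold, floor and the cells or colon library left out.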

Additional observations from a re-analysis of the deposited data

Results flagged for a closer look

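In 5 named genes the ratio of Klrg1-positive to Klrg1-negative cells had one sign in spleen and the other in both colon libraries. They are the named genes, eligible in positive cells and over all cells, whose counting intervals left out 0 in all 3 libraries. Ap1m1, Cdk17 and Sh2d1a met this but for eligibility over all cells, with 1.23 in spleen and -1.55 and -0.43 in colon for Ap1m1. Other named genes eligible in positive cells that changed sign had an interval that held 0 in at least 1 library. Cxcr3, given below, also changed sign but lay under the 200 CPM limit. The difference between the tissues was not tested, since no label names an animal, and both sides use the contrast that chose the cells. Maf, a factor of IL-10-producing T cells, had a log2 ratio of 1.66 (1.24 to 2.07) in spleen and -0.23 and -0.21 in colon 1 and colon 2. Ccr2, a chemokine receptor, had 1.08 in spleen and -0.42 and -0.40 in colon. Il2ra, the IL-2 receptor chain, had -1.10 (-1.74 to -0.52) in spleen and 0.23 and 0.66 in colon. Klf2, a factor of recirculating T cells, had -0.81 (-1.24 to -0.41) in spleen and 0.32 and 0.37 in colon. Cxcl10, with 0 UMIs in positive spleen cells, had a log2 ratio of -0.87 there with that sum set to 3 counts. The upper end of its counting interval was -0.50, and its log2 ratios in colon were 1.05 and 0.97. The spleen values of Ccr2 and Il2ra rest on 20 and 25 UMIs of positive cells.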

How the results depend on the processing

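The positive spleen sum limits every result: at 200 CPM it holds about 30 UMIs. No paired analysis was possible because each group is 1 library and the labels name no animal. Of 2331 values of single genes over 21 settings, 2297 stayed within the counting intervals of the reported value, which are wide for small sums. Another 29 moved outside them and 5 reversed, and 0 of these reversals was a tissue difference. The settings that change only eligibility or the fold limit leave every ratio as it was. Their values are among the 2297 and could not have moved. The reversals were changes of the tissue difference. Kctd12 had -0.57 with 2 or more Klrg1 UMIs, -0.55 with Klrg1 read after thinning and -0.62 without the top cell of each gene. Penk had -0.17 with Klrg1 read after thinning, and Cdkn1a 0.64 with the negative sums thinned. The cause was not tested. In the 1 alternative run for list levels, totals without ribosomal protein genes, all 36 stayed within their spread.

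Counts are given as higher and lower in positive cells, higher and lower in negative cells, shrunk, grown, and higher within all 3 libraries. Eligibility at 100 CPM gave 235, 232, 273, 53, 59, 108 and 10, and at 500 CPM gave 53, 11, 69, 13, 20, 2 and 2. With 1 UMI as the sole filter they were 852, 7373, 1239, 1298, 310, 3159 and 388, with 24 lower within all 3 libraries. A 4-fold limit gave 51, 12, 65, 5, 5, 3 and 0. Grown genes numbered 41 with 2 or more Klrg1 UMIs, 44 with Klrg1 read after thinning and 41 at a depth of 2000 UMIs. Totals without ribosomal protein genes gave 112 lower in positive cells, 78 lower in negative cells and 43 grown. TMM factors gave 27 lower in positive cells and 3 higher within all 3 libraries, and median-of-ratios factors 34 lower. Eligibility over all cells gave 26 lower, 8 grown, and 3 higher and 2 lower within all 3 libraries. Without the top cell of each gene 32 were lower in positive cells, 24 shrank and 2 were higher within all 3 libraries. The last 2 settings, the thinning of negative sums and the removal of dividing cells were chosen after seeing the data.

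With 1 colon library left out in turn, 146 to 181 genes were higher and 87 to 107 lower in positive cells, 170 to 204 higher and 43 to 72 lower in negative cells, 40 to 45 shrank, 49 to 52 grew and 6 to 7 were higher within each library. Fewer libraries must then pass. The share of Klrg1-positive cells was 10.6%, 34.1% and 40.4% without thinning and 13.4%, 34.2% and 41.8% at 2000 UMIs.

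Scaling moved the median log2 ratio by more than 0.1 in some comparisons. TMM factors moved it by 0.24 and 0.31 in positive cells, by -0.23 within spleen and by 0.11 within colon 2. Median-of-ratios factors moved it by 0.22 and 0.21, -0.14 and 0.12. Totals without ribosomal protein genes moved it by -0.21 and -0.23 in negative cells and -0.14 within spleen.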

Other observations

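Epcam, an adhesion molecule of epithelia that was given here as an epithelial marker and singled out after its values were seen, was at 149 CPM in Klrg1-positive and 28.1 in Klrg1-negative spleen cells, 53.85 and 17.5 in colon 1, and 93.8 and 30.1 in colon 2. The log2 ratio of positive to negative cells was 2.41 (1.55 to 3.25) in spleen, 1.62 (0.61 to 2.68) in colon 1 and 1.64 (1.22 to 2.07) in colon 2. In spleen it was found as 22 UMIs in 8 of 65 positive cells, at most 6 in 1 cell. The keratin genes Krt8, Krt18 and Krt20 had 0 UMIs in positive spleen cells. In colon 2, positive cells had 153 UMIs of Epcam and 1 each of Krt8, Krt18 and Krt20.

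Cxcr3, a chemokine receptor of type 1 effector cells, was at 136 CPM in positive and 57.9 in negative spleen cells, 51.6 and 105 in colon 1, and 63.7 and 117 in colon 2. Its log2 ratio of colon to spleen was -1.39 and -1.09 in positive cells and 0.86 and 1.02 in negative cells. Prdm1, which encodes the effector factor Blimp-1, had ratios of -0.16 and -0.15 in positive and 1.68 and 1.42 in negative cells. Both lay under the 200 CPM limit, and the positive spleen sums held 20 and 10 UMIs.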
